A study of Arabidopsis thaliana with 4 samples.

Results

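Arabidopsis thaliana seeds of the Ler-0 (Landsberg erecta) background were kept for 96 h in darkness at 4 °C or at 22 °C, and 6 genes were found whose transcript signal was at least 4 times lower on one 22 °C array, replicate B, than on the other 22 °C array and on both 4 °C arrays. A gene was taken when its probe set was paired with a single gene, when 4 °C A, 4 °C B and 22 °C A each had a deposited signal of at least 50, and when each of the 3 was at least 4 times the signal on 22 °C B, with values below 5 set to 5. Genes for late embryogenesis abundant (LEA) proteins and heat shock proteins were left out. Of 13513 single-gene probe sets, which stand for 13356 genes, 7 met the signal conditions. One of them, AT4G36600, is a LEA gene and was left out, which left 6, far below the 300 at which the set would have been limited. The 6 genes are AT5G17270, AT3G58660, AT1G72570, AT2G20940, AT4G30150 and AT1G15480. These genes were chosen by their signals on all 4 arrays, so their height on the 3 arrays and their low signal on 22 °C B are a description and not a finding.

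Mature seeds store messenger RNA that was made while they ripened on the mother plant, and many of these transcripts are broken down when an imbibed seed moves toward germination. Cold imbibition in darkness, known as stratification, releases dormancy while growth is held back by the temperature. Warm imbibition in darkness lets seeds that are not dormant germinate, whereas dormant ones stay at rest.

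Both groups were seeds of this background, for which the labels name no mutation or transgene. Total RNA was labelled with biotin, with 2 arrays at 4 °C and 2 at 22 °C, distinguished below as A and B. The labels call the material dry seeds while also describing the incubation. They do not say that the replicates were separate seed batches, so the p-values below cover no more than the spread among these arrays, part or all of which may be technical. Each seed sample is a mixture of embryo, endosperm and seed coat, and fewer cells of a type and less RNA per cell cannot be told apart in it. Signals are given as the authors deposited them, on a linear scale whose trimmed mean is 100 on every array, and the number of arrays limits the precision.

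The 22 °C B array stood apart over all probe sets. Median signals were 27.1 and 28.0 on 4 °C A and B, 31.4 on 22 °C A and 40.8 on 22 °C B. All 18 hybridisation control probe sets, which measure bacterial and phage transcripts added to the sample, had a higher signal on A, at 4 °C and at 22 °C alike. The median ratio of A to B over these controls was 2.54 at 4 °C and 3.02 at 22 °C, where it ran from 1.22 to 5.98. The mean 4 °C control signal was a median of 1.71 times that of 22 °C B. The 22 °C B array was the lowest of the 4 for 6 of the 18 controls, whereas it was the lowest for each of the 6 genes by their selection. The part of what lowered the controls on 22 °C B relative to 22 °C A in the signals of the 6 genes was not tested. Of 6 storage protein and oil body genes measured, which mark seed tissue, 5 had signals of at least 50 on all arrays, among them the vicilin-like storage protein gene PAP85, with 3260 and 3281 in the 4 °C pair, 2461 on 22 °C A and 3686 on 22 °C B. PAP85 and the oleosin genes AT3G01570 and OLEO3 were highest on 22 °C B, and AT2G28490, AT1G03890 and AT2G18540 on 22 °C A.

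In the deposited signals, few were low on 22 °C B alone. Among single-gene probe sets outside the LEA and heat shock groups, the same conditions turned to each array gave 3 probe sets low only on 4 °C A, 6 low only on 4 °C B, 30 low only on 22 °C A and 6 low only on 22 °C B. The opposite pattern, a signal of at least 50 that was at least 4 times that of each other array, was met by 7 probe sets on 4 °C A, 4 on 4 °C B, 57 on 22 °C A and 333 on 22 °C B. As deposited, the 22 °C B array thus differed from the other 3 by many transcripts high there and few low there. Its median signal was also the highest, and these counts depend on the scaling. The number low on 22 °C B alone was 20 after quantile normalization and 33 after scaling to equal medians. Counts for the other arrays and for high signals were not repeated at those scalings. These counts compare single arrays and have no replicate check.

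**Figure D1:**
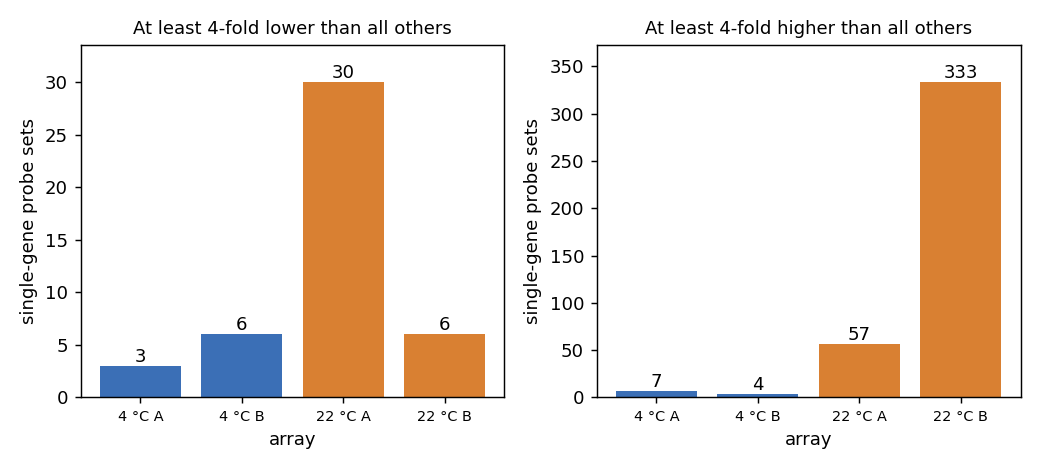
Number of single-gene probe sets outside the LEA and heat shock groups (vertical axes, each from 0) at least 4-fold lower (left panel) or at least 4-fold higher (right panel) on one array than on each of the other 3, with the 4 °C arrays in blue and the 22 °C arrays in orange. The 22 °C B array had 6 probe sets low on it alone and 333 high on it alone.

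Probe sets at least 4 times higher on 22 °C A than on 22 °C B mostly did not meet the same conditions at 4 °C. Again without LEA and heat shock genes, 114 single-gene probe sets on 22 °C A had a signal of at least 50 and at least 4 times that of 22 °C B. Of these, 6 met the same conditions on both 4 °C arrays, 6 on one of them and 102 on neither. In these 114 the 22 °C A signal was a median of 4.95 times that of 22 °C B, whereas the mean 4 °C signal was a median of 1.003 times that of 22 °C B. Conversely, 332 single-gene probe sets outside those groups were at least 50 and at least 4 times 22 °C B on both 4 °C arrays. They come from 13513 single-gene probe sets, of which 55 were left out as LEA or heat shock genes. Over these 332 the mean 4 °C signal was a median of 6.96 times that of 22 °C B and the 22 °C A signal a median of 1.60 times. The 6 genes are 5.26% of the first set and 1.81% of the second. Both sets use the same 22 °C B array, so no test was made of how far they coincide.

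**Figure D2:**
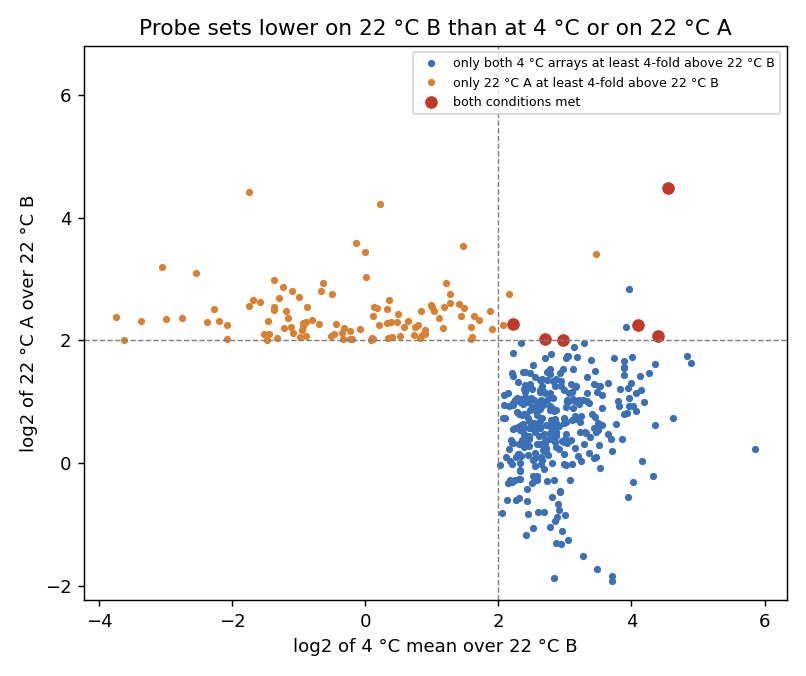
Log2 ratio of the mean 4 °C signal to 22 °C B (horizontal axis) against the log2 ratio of 22 °C A to 22 °C B (vertical axis) for each single-gene probe set in either set, LEA and heat shock genes left out, with values below 5 set to 5 and dashed lines at 4-fold. The 6 genes are in red at the upper right, and the other points there had a signal below 50 or a single 4 °C array below the 4-fold line.

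The 6 transcripts were low on 22 °C B, and the data do not show that they were lost. None of the 6 genes had a signal below 5 on 22 °C B, where they ran from 6.45 for AT5G17270 to 49.4 for AT4G30150. The deposited values carry no detection calls, so a low signal cannot be told apart from background. By percentile of signal among all probe sets on 22 °C B, AT4G30150 stood at 54.2 and AT2G20940 at 52.9. The others ran from 15.7 for AT5G17270 to 37.1 for AT1G72570. All 6 are protein-coding genes of the nuclear chromosomes 1 to 5 in the RefSeq table of assembly TAIR10.1, and each had 1 single-gene probe set. The tables used here give them a locus name and no product, so the families named below are general background.

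Of the 6 genes, 2 belong to families linked to the nucleolus, where ribosomal RNA is made and assembled with proteins. The share of such genes over all probe sets was not counted, so nothing is read from this number. AT3G58660 encodes a protein of the ribosomal protein L1 family. Its signal was 488.6 and 349.3 on arrays A and B at 4 °C, 83.0 on 22 °C A and 19.8 on 22 °C B. The 4 arrays fell into 3 levels, with both 4 °C arrays far above 22 °C A and 22 °C A above 22 °C B. The mean at 4 °C, 418.9 ± 98.5 (SD, n = 2), was 21.2 times the signal of 22 °C B and 5.05 times that of 22 °C A, and 22 °C A was 4.20 times 22 °C B.

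AT4G30150 encodes a protein related to yeast Urb2, a nucleolar factor needed for large ribosomal subunit assembly in that species. It had 283.1 and 356.6 on arrays A and B at 4 °C, 200.2 on 22 °C A and 49.4 on 22 °C B. Both 4 °C arrays lay above 22 °C A, and of the 6 genes it was the one whose 4 °C B signal exceeded that of 4 °C A. The 4 °C mean of 319.8 ± 51.9 (SD, n = 2) was 1.60 times the signal of 22 °C A and 6.47 times that of 22 °C B.

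AT1G72570 encodes a transcription factor of the AINTEGUMENTA-like group, whose members act in embryonic and growing tissues. It had 477.2 and 219.4 on arrays A and B at 4 °C, 96.3 on 22 °C A and 20.3 on 22 °C B. As with AT3G58660, the order ran from 4 °C through 22 °C A to 22 °C B without overlap, but the 4 °C replicates differed by 2.18 times. Their mean of 348.3 ± 182 (SD, n = 2) was 3.62 times the signal of 22 °C A and 17.2 times that of 22 °C B.

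AT1G15480 encodes a protein of the pentatricopeptide repeat family, most of whose members bind RNA in mitochondria or plastids. Its signals were close to the minimum of 50, with 62.4 and 53.9 on arrays A and B at 4 °C, 60.1 on 22 °C A and 12.5 on 22 °C B. The 22 °C A signal lay between the 4 °C replicates, and the 4 °C mean of 58.1 ± 6.06 (SD, n = 2) was 0.968 times it. Signals of this gene were alike on 3 arrays and low on 22 °C B.

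For the other 2 genes no role is given here. AT5G17270 had 170.4 and 130.3 on arrays A and B at 4 °C, 144.6 on 22 °C A and 6.45 on 22 °C B. The 22 °C A signal lay between those of the 4 °C replicates, whose mean of 150.3 ± 28.4 (SD, n = 2) was 1.04 times it and 23.3 times that of 22 °C B. This was the widest gap of the 6: the lowest of the 3 high arrays was 20.2 times 22 °C B, against 4.02 to 4.75 times in the other 5.

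AT2G20940 had 537.7 and 193.9 on arrays A and B at 4 °C, 188.1 on 22 °C A and 46.8 on 22 °C B. Its 4 °C replicates were the least alike of the 6 genes, with A 2.77 times B, and 4 °C B was close to 22 °C A. The 4 °C mean of 365.8 ± 243 (SD, n = 2) was 1.94 times the signal of 22 °C A and 7.82 times that of 22 °C B.

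**Figure D3:**
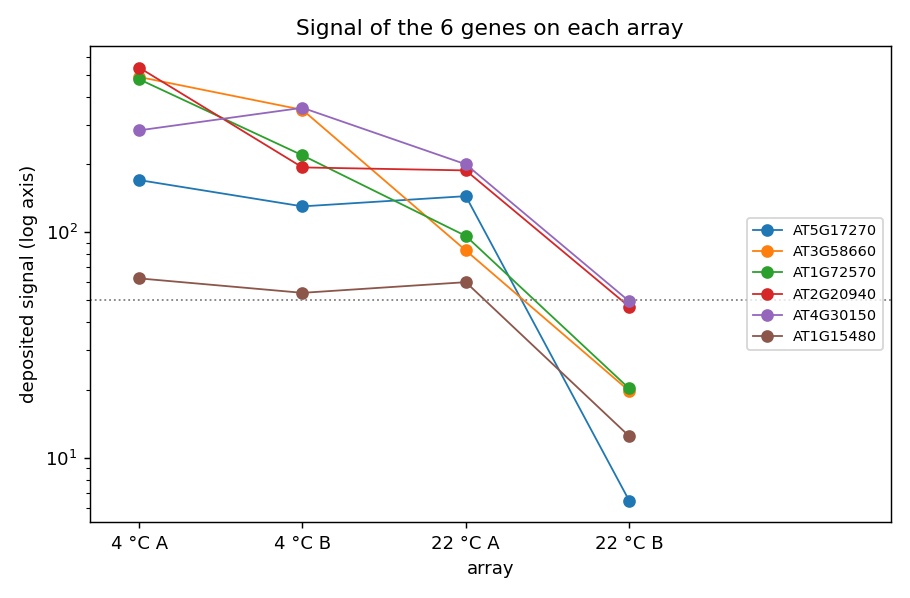
Deposited signal (log axis) of the 6 genes on the 2 arrays at 4 °C and the 2 at 22 °C, 1 point per array. The lines only join the points of a gene, and the dotted line marks the signal of 50 that the first 3 arrays had to reach. On 22 °C B all 6 lay below 50, from 6.45 to 49.4.

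The 6 genes shared the low signal on 22 °C B but not their order among the other 3 arrays. The selection did not set that order directly. It did use these 3 signals, so the values below are a description. Both 4 °C arrays were above 22 °C A for 4 genes and on either side of it for AT5G17270 and AT1G15480. Among the 3815 single-gene probe sets outside the LEA and heat shock groups with at least 50 on those 3 arrays, 43.9% had both 4 °C arrays above 22 °C A. The median log2 ratio of the 4 °C mean to 22 °C A was 0.818 over the 6 genes and 0.0905 over the 3815. Replicates at 4 °C differed by a median absolute log2 ratio of 0.436 over the 6 genes and 0.404 over the 3815, and 4 °C A was above 4 °C B for 5 of the 6 genes and for 48.8% of the 3815.

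In the comparison of temperatures over all 4 arrays, AT3G58660 was higher at 4 °C and the other 5 genes did not pass an adjusted p of 0.05 in limma, a linear model with shared variance estimates. The share called higher at 4 °C over all 15847 probe sets tested was 2.71% and the share called lower was 2.34%. The selection used these signals, so nothing is read from the count of 1 among 6. For AT3G58660 the log2 fold change was 3.12 ± 0.646 (SE), 4 °C minus 22 °C on scaled signal plus 32 (limma adjusted p = 0.0425). AT1G72570 had 2.66 ± 0.723 (SE; limma adjusted p = 0.0734) and AT5G17270 had 1.82 ± 1.01 (adjusted p = 0.310). The log2 fold changes of AT2G20940, AT4G30150 and AT1G15480 were 1.70, 1.59 and 0.863, with limma adjusted p = 0.208, 0.185 and 0.439. The log2 fold changes of the 6 genes shifted with single arrays, and AT1G15480 and AT3G58660 marked the lowest and highest each time. Leaving out 22 °C A gave 1.77 to 4.00, and leaving out 22 °C B gave -0.0455 to 2.23. The range was 0.767 to 2.88 when 4 °C A was dropped and 0.959 to 3.35 when 4 °C B was dropped. The selection required both 4 °C arrays to be at least 4 times 22 °C B. High values with 22 °C A left out therefore follow from the selection. Over all probe sets 53.7% of calls were higher at 4 °C. That share was 63.9% with arrays scaled to equal medians, and below an even split at 49.7% with no pseudocount, 37.4% without 22 °C A and 46.8% without 22 °C B.

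A fit without 22 °C B compared the 4 °C pair with 22 °C A alone, which was assumed to vary like the 4 °C pair. AT3G58660 and AT1G72570 were higher at 4 °C, and the other 4 did not pass. Over all 15102 probe sets tested, 11.2% were called higher and 12.7% lower at 4 °C. The log2 fold change was 2.23 ± 0.552 for AT3G58660 (SE; limma adjusted p = 0.00205) and 1.69 ± 0.562 for AT1G72570 (SE; limma adjusted p = 0.0228). Values for AT2G20940 and AT4G30150 were 0.763 ± 0.579 and 0.650 ± 0.552 (SE; limma adjusted p = 0.372 and 0.435). Those for AT5G17270 and AT1G15480 were 0.0418 ± 0.531 and -0.0455 ± 0.471 (SE; limma adjusted p = 0.970 and 0.962). Signals of these 3 arrays also took part in the selection, so the calls are given as a description.

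**Figure D4:**
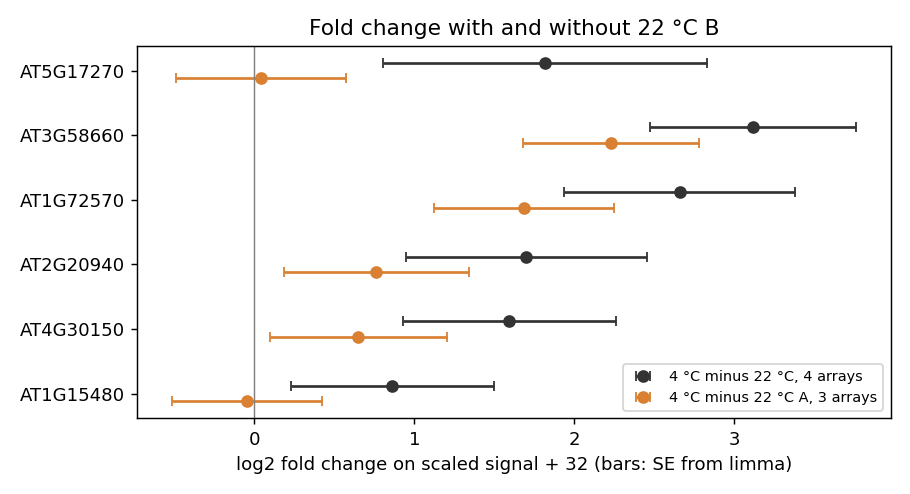
Log2 fold change on scaled signal plus 32 (horizontal axis) of the 6 genes for 4 °C minus 22 °C over 4 arrays (dark) and for 4 °C minus 22 °C A over 3 arrays (orange), with the SE from limma as bars. Without 22 °C B the values of AT5G17270 and AT1G15480 were 0.0418 and -0.0455, while that of AT3G58660 was 2.23.

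Most of the 6 genes were close to the 4-fold threshold. The 3 just inside were AT2G20940, AT4G30150 and AT3G58660, whose lowest signal on the other 3 arrays was 4.02, 4.05 and 4.20 times that of 22 °C B. The 3 just outside were AT3G56510, AT5G54300 and AT1G69070, with 3.92, 3.87 and 3.87 times. AT1G69070, which encodes a protein related to the yeast nucleolar factor Nop14, had 419.5 and 640.9 on arrays A and B at 4 °C, 210.6 on 22 °C A and 54.5 on 22 °C B. AT3G56510 had 319.8 and 175.4 at 4 °C, 123.1 on 22 °C A and 31.4 on 22 °C B, and AT5G54300 had 350.9 and 451.4 at 4 °C, 307.8 on 22 °C A and 79.5 on 22 °C B. All 3 had both 4 °C arrays above 22 °C A and 22 °C A above 22 °C B, as 4 of the 6 genes did.

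The threshold cut a continuous distribution. Of the 3815 probe sets at 50 or more on the other 3 arrays, from which LEA and heat shock genes were left out, 22 °C B was the lowest array in 1534, or 40.2%. In 226 it was lower by at least 2-fold, in 31 by at least 3-fold and in 6, or 0.157%, by at least 4-fold. A further 9 such probe sets reached 4-fold with a signal below 50 on at least 1 of the 3 arrays. The highest of these by mean ratio was AT2G41040, with 75.1 and 80.8 on arrays A and B at 4 °C, 35.7 on 22 °C A and 4.93 on 22 °C B.

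**Figure D5:**
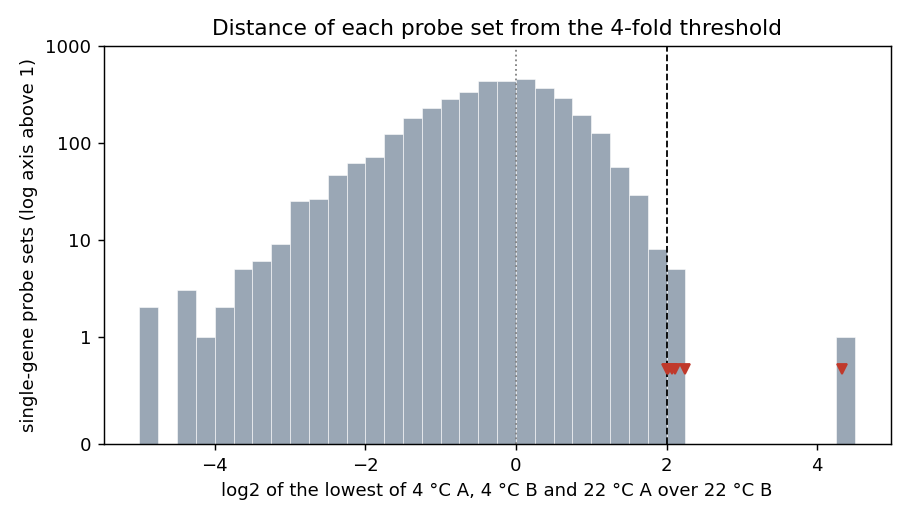
Number of single-gene probe sets (vertical axis, logarithmic above 1) by the log2 ratio of the lowest of 4 °C A, 4 °C B and 22 °C A to 22 °C B, for the 3815 probe sets outside the LEA and heat shock groups at 50 or more on those 3 arrays. The dashed line marks 4-fold, the dotted line equal signals, and the red triangles the 6 genes, of which 5 lie just beyond the dashed line and AT5G17270 lies apart from them.

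The number of genes that met the conditions depended on how the arrays were scaled. It was 20 after quantile normalization and 33 after scaling to equal medians, and all 6 genes were among both. With a minimum signal of 100 on the 3 arrays it was 3, namely AT5G17270, AT4G30150 and AT2G20940. With a threshold of 6-fold AT5G17270 alone was left. The median log2 fold change over all probe sets, 4 °C minus 22 °C, was -0.125 as scaled here, 0.0447 after quantile normalization and 0.214 with equal medians.

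None of the 6 genes was in the gene lists of seed biology, which held 370 loci. Nothing is read from this, since LEA and heat shock genes were left out by the selection and some lists had no single-gene probe set. Among the 3815 probe sets at 50 or more on the 3 other arrays, 0.157% met the 4-fold condition. Genes below are counted where their signal was at least 50 on those 3 arrays. For all genes so measured, LEA and heat shock genes included, 22 °C B was the lowest array in 1520 of 3782, or 40.2%. It was the lowest in 9 of 20 LEA genes, which protect drying embryos. The median log2 ratio to 22 °C B in these 20 was -0.0557 for the 4 °C mean and 1.25 for 22 °C A. Along with AT4G36600, AT3G02480 reached 2-fold. AT4G36600 had 251.4 and 157.9 at 4 °C, 175.8 on 22 °C A and 15.9 on 22 °C B, and AT3G02480 had 988.1 and 302.9 at 4 °C, 619.7 on 22 °C A and 91.5 on 22 °C B. In the 4-array limma fit 1 of 28 LEA genes tested was higher and 3 were lower at 4 °C, and 24 did not pass. Of the 28, 12 had an unadjusted p below 0.05. Their median log2 fold change was -1.05, against -0.0987 over all genes. Over the 8625 genes in that fit 2.76% were higher and 2.17% lower, and 25.3% had an unadjusted p below 0.05. Without 22 °C B, 2 of 28 LEA genes were higher and 16 lower in limma, against 10.8% higher and 12.3% lower over 8268 genes. The difference between the fits was not tested.

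Autophagy genes, which serve the recycling of cell contents, had 22 °C B lowest in 2 of 11. These were ATG8G and ATG8B, both encoding ubiquitin-like proteins of the autophagosome membrane. ATG8G had 353.6 and 123.3 on arrays A and B at 4 °C, 114.6 on 22 °C A and 40.9 on 22 °C B. ATG8B had 174.4 and 76.5 at 4 °C, 83.1 on 22 °C A and 38.6 on 22 °C B. None of 16 autophagy genes tested passed the 4-array limma fit, and 4 had an unadjusted p below 0.05, a share close to the 25.3% over all genes. With 22 °C B left out, their median log2 fold change was -0.586, against -0.0543 over 8268 genes. In the 4-array fit their median log2 fold change was -0.382, against -0.0987 over 8625 genes.

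Storage protein and oil body genes had 22 °C B lowest in 0 of 5, and none of 6 tested passed the 4-array limma fit, in which 1 had an unadjusted p below 0.05. Over all 8625 genes in that fit 2.76% were higher, 2.17% were lower and 25.3% had an unadjusted p below 0.05. In the fit without 22 °C B, the median log2 fold change of these 6 was -1.10, against -0.0543 over 8268 genes. Tubulins and expansins, which serve growth, had 22 °C B lowest in 0 of 4. The median log2 ratio to 22 °C B in these 4 was 0.00102 for the 4 °C mean and -2.37 for 22 °C A. The list had 17 measured genes, and the minimum of 50 left out any that were high on 22 °C B alone. Among those left out, the ratio for the 4 °C mean ran from -5.95 for TUB1 to 2.70 for EXPA15. It was also low for EXPA4, at -2.72, and above 0 for TUA1, at 0.931. The median over the 4 therefore does not describe the whole list. Of 14 tubulins and expansins tested in the 4-array limma fit, 0 were higher and 1 was lower at 4 °C, and 7 had an unadjusted p below 0.05. Over the 13 tested without 22 °C B, the median log2 fold change was 0.987, against -0.0543 over 8268 genes. Of the 2 genes of fermentation and anaerobic metabolism measured, PDC2, a pyruvate decarboxylase, was lowest on 22 °C B. It had 252.1 and 277.8 on arrays A and B at 4 °C, 580.6 on 22 °C A and 171.0 on 22 °C B. The other, AT4G17260, was highest there, with 47.5 and 78.7 at 4 °C, 53.1 on 22 °C A and 122.6 on 22 °C B. Of the 2 antioxidant genes measured, SAPX, the stromal ascorbate peroxidase gene, had 349.3 and 456.8 at 4 °C, 307.7 on 22 °C A and 401.8 on 22 °C B. The other, TAPX, had 0.804 and 23.6 at 4 °C, 20.8 on 22 °C A and 90.3 on 22 °C B. Heat shock genes had 22 °C B lowest in 0 of 3, and 1 of 15 tested in the 4-array limma fit was higher at 4 °C, against 2.76% over all genes. Without 22 °C B the median log2 fold change over 14 heat shock genes was -0.263. EEL, a transcription factor of late seed maturation and the 1 gene of abscisic acid signalling measured, was lower at 4 °C in the 4-array fit and had 35.9 and 31.1 at 4 °C, 910.4 on 22 °C A and 542.6 on 22 °C B. Its signal was high on both 22 °C arrays and low at 4 °C, unlike that of the 6 genes.

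Markers of germinated seedlings had another order over the arrays than the 6 genes. Of 4 photosynthesis genes measured, all 4 had their highest signal on 22 °C B, led by PORB, a protochlorophyllide oxidoreductase of chlorophyll synthesis. PORB had 16.1 and 3.08 in the 4 °C pair, 365.2 on 22 °C A and 2556 on 22 °C B. The others differed much less between the 22 °C arrays. On 22 °C A and B, LHCB4.1 had 743.5 and 767.1, LHCB4.2 had 44.1 and 61.6, and LHCB4.3 had 53.3 and 80.3. The part of these differences between the 22 °C arrays in the signals of the 6 genes was not tested. Seed coat markers had 2 measured genes, both with signals below 5 on every array. Lists of endosperm markers, abscisic acid synthesis, raffinose family sugars and dormancy regulators had no single-gene probe set and were not analysed here.

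A further 11 probe sets met the signal conditions but are not listed with a gene in the annotation used, so they are not named. Their mean over the 3 high arrays was 4.79 to 22.9 times the signal of 22 °C B, with a median of 6.53. Both 4 °C arrays were above 22 °C A in 9 of the 11, and the 4 °C mean was a median of 1.48 times 22 °C A. Their 22 °C B signals ran from 9.92 to 478.5.

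Neighbouring genes were also examined. Of the 12 protein-coding genes next to the 6 in the TAIR10.1 table, 6 had a single-gene probe set, and 22 °C B was the lowest array in 2 of them, both beside AT1G72570. These were PSD, with 165.1 and 260.8 on arrays A and B at 4 °C, 180.4 on 22 °C A and 105.6 on 22 °C B, and AT1G72580, with 12.6 and 11.7 at 4 °C, 7.60 on 22 °C A and 3.72 on 22 °C B. Some of the 6 neighbours, AT1G72580 among them, had signals below 50 on every array. For all genes at 50 or more on the other 3 arrays, 22 °C B was the lowest in 40.2%, so nothing is read from the 2.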

How the data were processed

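The authors deposited probe set intensities on a linear scale. The submitters' processing notes name MAS5, with no version. The sources used here do not state the genome build or how background was handled, and no detection calls were used. Signals in the text are as deposited. The 64 control probe sets were left out of 22810. Of the other 22746, 13513 were paired with 1 gene, 503 with several and 8730 were not listed, and 13436 matched the RefSeq table.

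For the fits, each array was scaled to a 2% trimmed mean of 500, probe sets with a mean below 64 over the arrays fitted were left out, and log2(signal + 32) was tested with limma 3.58.1 in R 4.3.3 (lmFit, eBayes with trend), with Benjamini-Hochberg adjustment over all probe sets kept. The fits were run on simulated data, in which noise had the same size on all 4 arrays. In the real data the replicates had a Spearman correlation of 0.937 at 4 °C and 0.764 at 22 °C. The simulation therefore does not show how the fits behave with such unequal pairs. A log2 fold change understates changes of low signals. In lists, a gene with several single-gene probe sets was counted by the brightest. All 6 genes are named. The members and lists were chosen with earlier results of these data known. A planned promoter motif search was not run, since no sequences were used here.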

Additional observations from a re-analysis of the deposited data

How the results depend on the processing

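With 2 arrays a temperature, the calls rest on few values. Of the 6 genes 1 was called in the 4-array fit, against 0 with a pseudocount of 100, 0 with no filter, 2 with a filter at 200, 2 with median centring, and 0 to 6 with 1 array left out. With the replicate letter as a block 4 were called, namely AT3G58660, AT1G72570, AT2G20940 and AT5G17270, the last 3 with limma adjusted p = 0.00162, 0.0283 and 0.0421. The labels do not say that letters pair the arrays, and the A minus B differences at 4 °C and 22 °C correlated with r = 0.209 across 15847 probe sets. Without 22 °C B, 2 were called, against 0 with no filter. Leaving out a 4 °C array there left no residual degrees of freedom and was not run. The number of genes meeting the conditions, 6, was 31 at 3-fold, 1 at 6-fold, 3 with a minimum signal of 100, 20 after quantile normalization and 33 with median centring. The log2 fold change of AT1G15480 ranged from -0.0455 to 1.77 with 1 array left out. Against 22 °C A it was -0.0455, but 0.0445 after quantile normalization and 0.126 with median centring. The cause was not tested. Calls over all probe sets numbered 801, against 226 with a pseudocount of 100, 2 with no filter, 1266 with a filter at 200, 1803 with median centring, 2879 with the block, of which 43.6% were higher at 4 °C, and 1 to 4277 with 1 array left out. Without 22 °C B they numbered 3603, against 854 with no filter.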
